A study of Mus musculus with 9 samples.

Results

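The 39 genes described here encode the enzymes of cholesterol synthesis, the SREBP control system that regulates them, carriers of intracellular sterol, enzymes of fatty acid synthesis, and the sterol-sensing LXR receptors with their targets. They were picked by gene symbol from a table of 37975 rows, and the row with the highest mean was taken where a symbol had more than 1. Of the 39, 37 reached at least 1 FPKM in some library, as did 15082 rows of the table, and 36 of these had a usable estimate in all 9 libraries. FPKM divides sequenced fragments by transcript length and by the size of the library. Libraries can still differ in scale, as the median-ratio factors given below show.

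The libraries came from mouse cells, with 1 library for each of 9 groups, and RNA was read in bulk from many cells. Wild-type R1 embryonic stem cells (ESC) and the wild-type extraembryonic endoderm line IM8AR (XEN, stem cells of the yolk sac endoderm lineage) received no doxycycline (dox). A Sox17-overexpressing ESC line was sampled without dox and after 7, 21, 35 and 49 h and 6 days in 100 ng/ml dox, which turns on this endoderm transcription factor. Its XEN-like derivative, Sox17-XEN, is labelled with a dox period and a dox-free period of 30 days each, in an order that is not clear, and described as dox-independent. The day 6 description also carries the word sort, so that library may hold sorted cells and not a whole culture. No marker of the sort is named. The labels put ESC on a layer of mouse embryonic fibroblasts, with LIF and serum, while XEN cells had serum and medium conditioned by such fibroblasts. They do not say which of these media Sox17-XEN was kept in, what promoter drives the transgene, or whether the line is 1 clone. Every Sox17 library comes from that 1 line. In bulk RNA, fewer cells of a type and less RNA per cell cannot be told apart.

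Cholesterol is built from acetyl-CoA through mevalonate and isoprenoid units to squalene, which is closed into lanosterol and then trimmed by a series of demethylases, reductases and isomerases. The SREBP transcription factors are held in the endoplasmic reticulum by SCAP and INSIG proteins while sterol is plentiful and are released to the nucleus when it runs short, where they turn on the whole pathway together with NF-Y. LXR receptors respond to oxysterols in the opposite situation and turn on sterol exporters. Visceral and parietal endoderm, the tissues that XEN cells resemble, are secretory and take up and pass on lipid.

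With 1 library per group, pairs of libraries were compared by size. A gene is called higher or lower where log2(FPKM + 1) differs by at least 1, which is 2-fold in FPKM + 1, and no p-value belongs to such a call. The share of all genes past the same size is given as the background. "Rose" is used for genes past a test over several libraries.

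The marker genes matched the labels in broad terms. Summed over 9 pluripotency markers, the level was between 2182 and 5002 FPKM in the ESC and dox libraries, day 6 included, and 15.7 and 15.9 FPKM in the XEN-type lines. At day 6 the median marker was at 1.89 FPKM and 1 gene, Dppa5a, made up 1733 FPKM of the sum. Pou5f1 was still at 325 FPKM there, Utf1 at 79.0 FPKM and Zfp42 at 39.7 FPKM, while Nanog was at 1.89 FPKM and Sox2 at 1.84 FPKM. In Sox17-XEN Pou5f1 was at 2.54 FPKM. Summed over 8 primitive endoderm markers, it was 8.23 FPKM in R1 ESC, 125 FPKM at 49 h, and between 1714 and 1928 FPKM at day 6 and in both XEN-type lines. The 10 fibroblast markers summed to 842 FPKM in R1 ESC, 915 to 2349 FPKM from no dox to 49 h, 160 FPKM at day 6, 706 FPKM in Sox17-XEN and 14.0 FPKM in wild-type XEN. Collagen gene Col1a1 was at 252 FPKM in Sox17-XEN and 0.491 FPKM in wild-type XEN. Levels of these markers therefore differ between the libraries compared below, and their part in the differences was not tested. Scale also differed: median-ratio factors ran from 0.869 in R1 ESC to 1.27 in wild-type XEN, with 1.23 in Sox17-XEN. Absolute depth is unknown, since the table holds no counts.

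Sox17-XEN held less message for the whole sterol pathway than wild-type XEN. All 17 measured synthesis enzymes were below their wild-type XEN level, and 15 of them were called lower, by 1.06 to 3.26 log2 units, against a background of 6.76% of genes called lower. None of the 17 was called higher, against 9.09% of all genes. Their median difference was -1.65, beside 0.02 over all 14979 genes compared. Over all 37 members, 22 were lower and 2 were higher, with a median of -1.17. After median-ratio rescaling the enzyme count was again 15 of 17, against 868 of 14979 genes, with a median of -1.59. The unequal scale of the libraries thus had little effect on this pair. Of the 12 enzymes whose listed locus is shared with no other row, 10 were lower, with a median of -1.52.

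**Figure D1:**
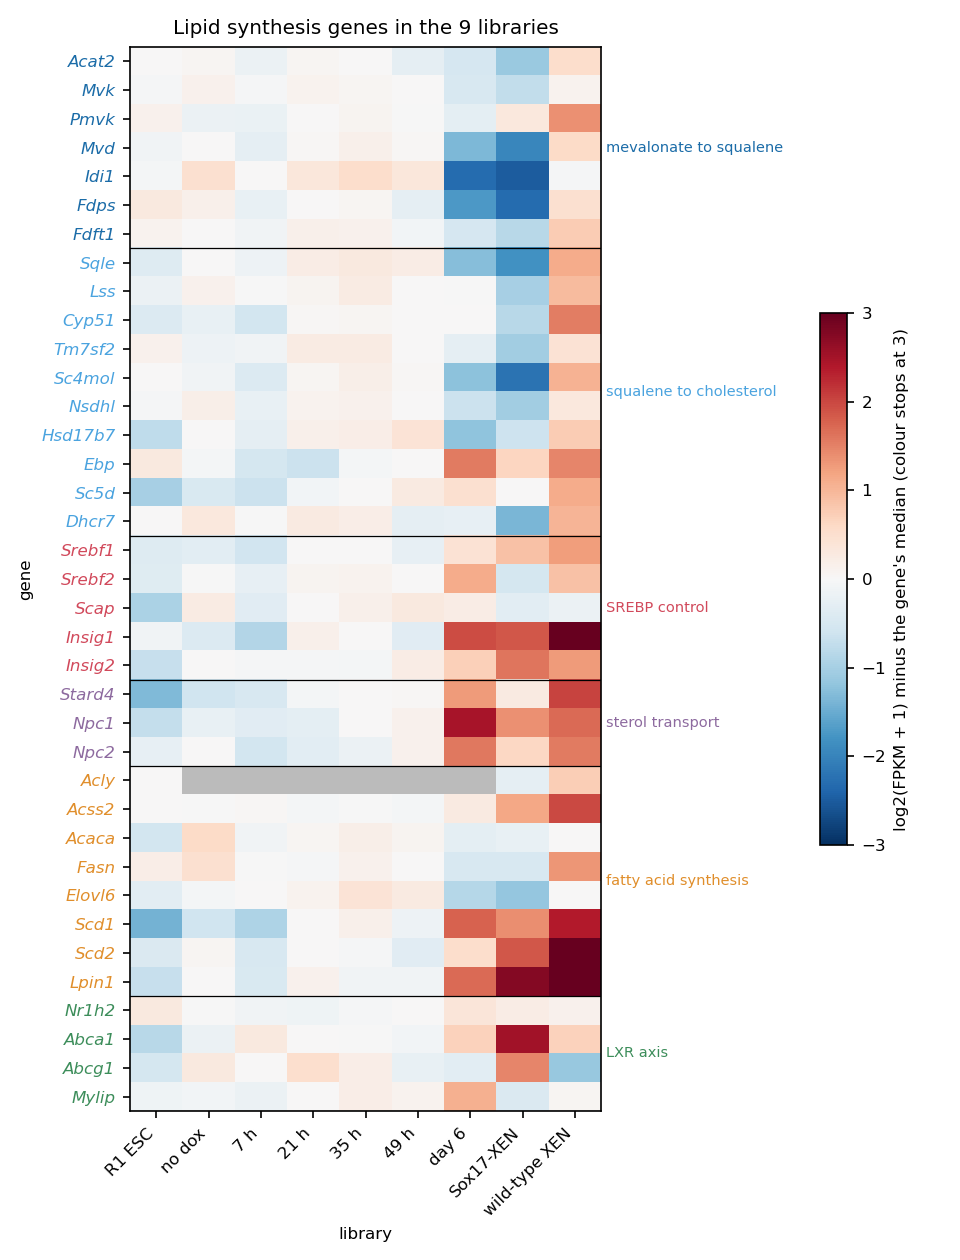
Level of 37 lipid genes (rows, coloured by role) in the 9 libraries (columns), as log2(FPKM + 1) minus the median of that gene over the libraries, with colour stopping at 3 units and grey where no estimate exists. Sox17-XEN is the lowest library for 13 of 17 sterol enzymes and wild-type XEN the highest for 14, while Insig1, Scd1, Scd2 and Lpin1 are red in both XEN-type lines.

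Summed, the sterol enzymes set day 6 and Sox17-XEN below, and wild-type XEN above, the ESC libraries and the dox libraries up to 49 h. Their summed level was 508 FPKM in R1 ESC, 530 FPKM without dox, and 437, 536, 560 and 493 FPKM after 7, 21, 35 and 49 h. It was then 311 FPKM at day 6 and 217 FPKM in Sox17-XEN, the lowest of the 9, and 899 FPKM in wild-type XEN, the highest. After rescaling the sums were 176 FPKM in Sox17-XEN and 708 FPKM in wild-type XEN, which remained the lowest and the highest. Taken gene by gene, Sox17-XEN was the lowest of the 9 libraries for 13 of 17 enzymes, against 13% of all genes, and for 13 after rescaling. Wild-type XEN was the highest for 14 of 17, against 22.1% of all genes, and for 8 after rescaling. Of all 14865 genes, rescaling left Sox17-XEN lowest for 2773 and wild-type XEN highest for 2140.

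The first steps turn acetyl-CoA into the C5 isoprenoids and join these into squalene. The acetoacetyl-CoA thiolase gene Acat2 was at 31.8 FPKM in R1 ESC, 33.2 without dox, 28.0, 33.1, 31.7 and 26.4 at 7, 21, 35 and 49 h, 22.0 at day 6, 14.0 in Sox17-XEN and 46.3 in wild-type XEN. Its Sox17-XEN level was 3.30-fold below wild-type XEN. Mevalonate kinase (Mvk) missed the size, with 12.3 FPKM in Sox17-XEN and 23.0 FPKM in wild-type XEN, a difference of -0.85. Phosphomevalonate kinase (Pmvk), the next enzyme, was at 34.5 FPKM in R1 ESC, 27.9 without dox, 27.3, 31.5, 33.2 and 31.3 at 7, 21, 35 and 49 h, 25.4 at day 6, 39.5 in Sox17-XEN and 83.2 in wild-type XEN. Among these 7 genes Pmvk alone was higher in Sox17-XEN than in every ESC and dox library, and wild-type XEN was higher still.

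The decarboxylase gene Mvd was at 27.7 FPKM in R1 ESC, 29.7 without dox, 24.7, 30.4, 32.9 and 30.3 at 7, 21, 35 and 49 h, 11.03 at day 6, 6.91 in Sox17-XEN and 44.7 in wild-type XEN. Its row covers a very wide locus that overlaps others, so reads of a neighbour may be counted in it. Isopentenyl diphosphate isomerase, Idi1 (ENSMUSG00000058258, mm9 chr13:8884747-8891697), was at 28.4 FPKM in R1 ESC, 41.8 without dox, 29.6, 37.6, 42.9 and 37.5 at 7, 21, 35 and 49 h, 5.17 at day 6, 4.42 in Sox17-XEN and 28.9 in wild-type XEN. Idi1 was low in day 6 and Sox17-XEN alone: the other 7 libraries lay between 28.4 and 42.9 FPKM. Farnesyl diphosphate synthase (Fdps), whose product feeds both sterols and protein prenylation, was at 150.2 FPKM in R1 ESC, 135 without dox, 105, 122, 126 and 101 at 7, 21, 35 and 49 h, 36.4 at day 6, 23.6 in Sox17-XEN and 170.4 in wild-type XEN. Squalene synthase (Fdft1), which commits farnesyl units to sterol, was at 35.6 FPKM in R1 ESC, 33.3 without dox, 30.7, 37.4, 36.3 and 31.2 at 7, 21, 35 and 49 h, 23.1 at day 6, 18.3 in Sox17-XEN and 57.1 in wild-type XEN. Both genes had their lowest values in Sox17-XEN and their highest in wild-type XEN, and both share their listed locus with another row. Hmgcs1, the synthase ahead of mevalonate, has rows on unplaced scaffolds alone, listed at 0 in every library, and no value of it was used.

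Squalene is next oxidised and closed into a ring. Squalene epoxidase, Sqle (ENSMUSG00000022351, mm9 chr15:59146632-59162747), one of the control points of the pathway, was at 28.5 FPKM in R1 ESC, 37.5 without dox, 33.5, 44.0, 46.2 and 43.9 at 7, 21, 35 and 49 h, 14.9 at day 6, 9.97 in Sox17-XEN and 82.2 in wild-type XEN. It was 8.25-fold lower in Sox17-XEN than in wild-type XEN. Lanosterol synthase (Lss) was at 21.2 FPKM in R1 ESC, 26.6 without dox, 23.8, 25.6, 28.6 and 24.1 at 7, 21, 35 and 49 h, 23.9 at day 6, 11.7 in Sox17-XEN and 47.9 in wild-type XEN. For both genes Sox17-XEN lay below, and wild-type XEN above, all 7 ESC and dox libraries.

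The remaining enzymes convert lanosterol to cholesterol. Lanosterol demethylase (Cyp51) was at 18.1 FPKM in R1 ESC, 20.7 without dox, 16.4, 24.8, 25.4 and 24.4 at 7, 21, 35 and 49 h, 24.4 at day 6, 13.2 in Sox17-XEN and 72.5 in wild-type XEN. The methylsterol oxidase gene Sc4mol, now called Msmo1 (ENSMUSG00000031604, mm9 chr8:67196936-67212589), was at 36.2 FPKM in R1 ESC, 33.8 without dox, 27.001, 37.7, 41.2 and 36.8 at 7, 21, 35 and 49 h, 14.9 at day 6, 7.01 in Sox17-XEN and 75.9 in wild-type XEN. Its difference of -3.26 log2 units, a 10.8-fold change in FPKM, was the largest of all members between the XEN-type lines. The sterol reductase gene Tm7sf2 was at 9.50 FPKM in R1 ESC, 7.63 without dox, 7.97, 10.5, 10.5 and 8.67 at 7, 21, 35 and 49 h, 7.02 at day 6, 3.70 in Sox17-XEN and 12.0 in wild-type XEN. Sterol dehydrogenase gene Nsdhl, which acts with Sc4mol in removing the C4 methyl groups, was at 12.5 FPKM in R1 ESC, 14.8 without dox, 10.9, 13.9, 14.1 and 12.9 at 7, 21, 35 and 49 h, 7.89 at day 6, 5.80 in Sox17-XEN and 16.2 in wild-type XEN. The ketoreductase of the same complex, Hsd17b7, was at 4.01 FPKM in R1 ESC, 7.52 without dox, 6.02, 8.53, 8.72 and 10.3 at 7, 21, 35 and 49 h, 2.68 at day 6, 4.54 in Sox17-XEN and 13.5 in wild-type XEN. Sox17-XEN was the lowest library for Cyp51, Sc4mol, Tm7sf2 and Nsdhl, while for Hsd17b7 it lay between R1 ESC and no dox and day 6 was lowest.

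The last enzymes were less uniform. The sterol desaturase gene Sc5d was at 6.89 FPKM in R1 ESC, 10.6 without dox, 9.09, 14.0, 15.0 and 18.0 at 7, 21, 35 and 49 h, 21.1 at day 6, 14.9 in Sox17-XEN and 33.1 in wild-type XEN. Dhcr7, which makes cholesterol from its direct precursor, was at 30.0 FPKM in R1 ESC, 37.6 without dox, 29.7, 36.3, 34.8 and 24.8 at 7, 21, 35 and 49 h, 25.3 at day 6, 10.9 in Sox17-XEN and 62.3 in wild-type XEN. The sterol isomerase gene Ebp missed the size, at 16.2 FPKM in Sox17-XEN and 29.6 FPKM in wild-type XEN. Ebp and Sc5d were, with Pmvk, the enzymes that Sox17-XEN held above its parent line without dox, by 0.70, 0.45 and 0.49 log2 units, all short of the size. Dhcr7 followed the pattern of Sqle, Lss and Sc4mol.

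**Figure D2:**
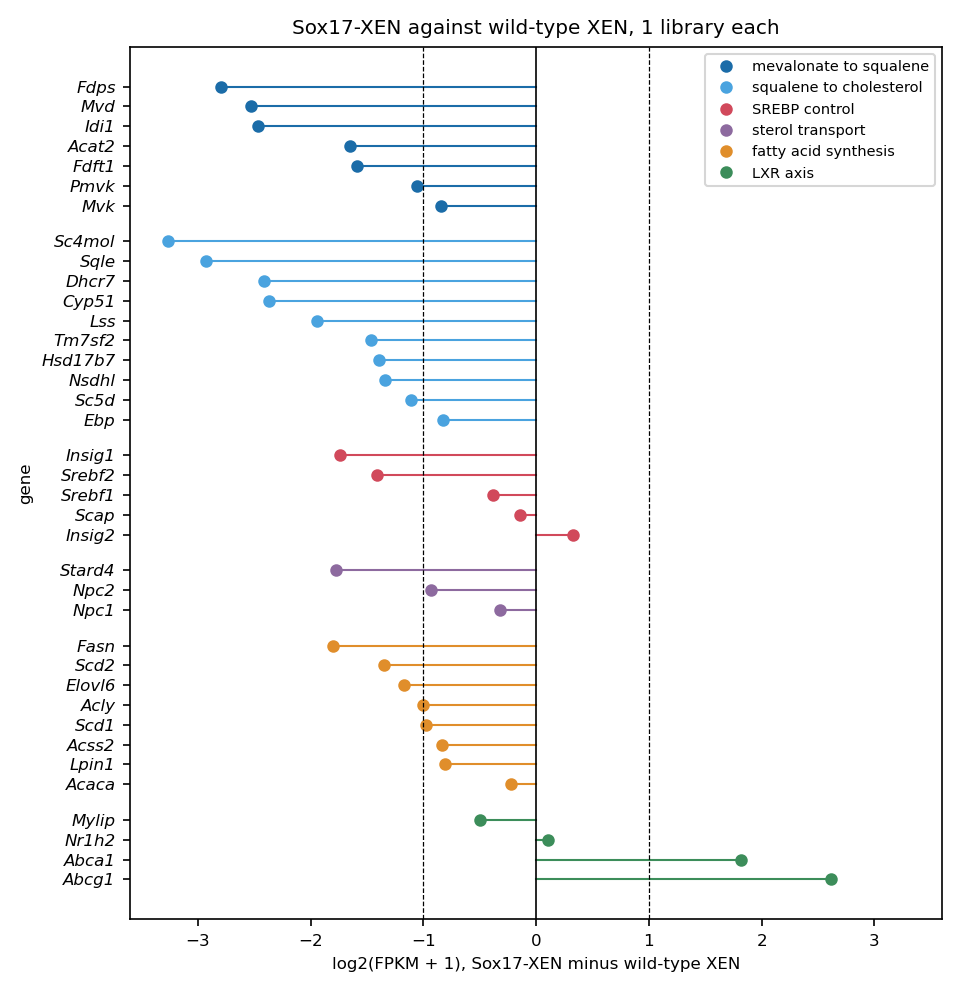
Difference in log2(FPKM + 1) between Sox17-XEN and wild-type XEN for 37 genes, grouped and coloured by role, with dashed lines at 1 log2 unit either way. All 17 sterol enzymes lie left of 0, from -0.83 to -3.26, while Abca1 and Abcg1 lie right of 1.

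Promoters of some of these enzymes and of Abca1 are shown as examples picked by name. NF-Y, the partner of SREBP at sterol genes, binds the letters CCAAT. Sequences are from RefSeq (build GRCm38.p6), where 31 of the 39 genes had a promoter window of 300 bases, 250 before the start site and 50 after it. Each line gives the last 120 bases before the start site, 5′ to 3′ on the strand of the gene, and capitals mark CCAAT or its reverse complement ATTGG. Idi1, Sc4mol and Hsd17b7 show repeated boxes, Lss and Cyp51 a single one, and the exporter gene Abca1 has none in the stretch. The regions are chr13:8885486-8885605 (plus strand), chr8:64733579-64733698 (minus), chr1:169969206-169969325 (minus), chr10:76531485-76531604 (plus), chr5:4104698-4104817 (minus) and chr4:53159896-53160015 (minus).
Idi1: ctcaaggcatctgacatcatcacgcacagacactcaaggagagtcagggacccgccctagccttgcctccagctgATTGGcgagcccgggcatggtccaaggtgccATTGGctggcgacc
Sc4mol: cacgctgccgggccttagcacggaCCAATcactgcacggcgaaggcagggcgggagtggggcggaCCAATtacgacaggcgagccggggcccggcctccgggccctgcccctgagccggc
Hsd17b7: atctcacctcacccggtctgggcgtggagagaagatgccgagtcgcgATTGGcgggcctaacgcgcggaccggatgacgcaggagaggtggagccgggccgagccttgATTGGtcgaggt
Lss: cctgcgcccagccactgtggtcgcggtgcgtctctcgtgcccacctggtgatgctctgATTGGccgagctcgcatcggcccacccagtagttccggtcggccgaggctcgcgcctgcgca
Cyp51: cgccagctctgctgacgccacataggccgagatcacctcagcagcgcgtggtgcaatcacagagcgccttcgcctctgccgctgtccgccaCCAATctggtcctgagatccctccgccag
Abca1: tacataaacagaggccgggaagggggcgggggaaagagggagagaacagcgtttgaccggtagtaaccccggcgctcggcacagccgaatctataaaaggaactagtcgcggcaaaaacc

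Over the full 300-base windows and both strands, CCAAT occurred in 14 of 15 sterol enzyme genes (93.3%), in 9 of the 16 other members (56.3%) and in 41.1% of the 27025 genes of the promoter table. At least 2 occurrences were found in 9 of the 15 (60%), in 4 of the 16 (25.0%) and in 13.3% of all genes there. Mvk and Ebp, the enzymes not called lower in Sox17-XEN than in wild-type XEN, had CCAAT in the window, as did Insig2. Acat2, which was called lower, had none. Any link between the boxes and the levels was not tested. The boxes printed for Idi1 begin 45 and 14 bases before the start site. A sterol element spelled TCACNCCAC was found in 1 of the 31, Hmgcs1, and in 1.44% of all genes there. A match is a description of letters and not a bound site, and a missing match says that these letters are not in this window. Fdps, Fdft1 and Sqle had no entry.

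The SREBP system differed by gene between the XEN-type lines, with 2 of 5 members lower, against 6.76% of all genes, and a median of -0.38. Srebf2, whose product is the main activator of sterol synthesis genes, was at 39.9 FPKM in R1 ESC, 50.5 without dox, 43.4, 54.7, 54.9 and 51.3 at 7, 21, 35 and 49 h, 113 at day 6, 35.3 in Sox17-XEN and 95.2 in wild-type XEN. Sox17-XEN was the lowest and day 6 the highest of the 9, a span within 1 cell line. Insig1, the sterol-responsive retention protein and itself an SREBP target, was at 38.1 FPKM in R1 ESC, 30.3 without dox, 21.9, 45.1, 40.7 and 32.1 at 7, 21, 35 and 49 h, 161 at day 6, 152 in Sox17-XEN and 509 in wild-type XEN. Sox17-XEN and day 6 held nearly the same Insig1 level, several times that of any ESC library, and wild-type XEN stood above both. Insig2, the other retention protein, was at 6.45 FPKM in R1 ESC, 11.1 without dox, 10.9, 10.8, 10.6 and 13.2 at 7, 21, 35 and 49 h, 18.8 at day 6, 36.0 in Sox17-XEN and 28.5 in wild-type XEN. It was the 1 member of the group with a higher value in Sox17-XEN than in wild-type XEN, by 0.33 log2 units, short of the size.

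Srebf1, whose product favours fatty acid genes, was at 35.2 FPKM in R1 ESC, 37.2 without dox, 30.5, 47.1, 46.3 and 39.1 at 7, 21, 35 and 49 h, 63.4 at day 6, 86.4 in Sox17-XEN and 113 in wild-type XEN. It was highest in the XEN-type lines, which differed by -0.38 log2 units. Scap, the escort of the SREBPs, showed little pattern among Sox17-line and XEN libraries, from 12.9 to 20.6 FPKM, and was lowest in R1 ESC at 8.16 FPKM.

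Of the 3 sterol carriers, Stard4 was lower in Sox17-XEN than in wild-type XEN, against 6.76% of all genes. Stard4, a cytosolic sterol shuttle, was at 5.57 FPKM in R1 ESC, 9.88 without dox, 10.8, 14.9, 15.5 and 15.8 at 7, 21, 35 and 49 h, 39.3 at day 6, 18.7 in Sox17-XEN and 66.7 in wild-type XEN. Npc1, the lysosomal membrane protein that exports cholesterol from lysosomes, was at 6.88 FPKM in R1 ESC, 10.01 without dox, 9.11, 9.49, 11.8 and 13.1 at 7, 21, 35 and 49 h, 70.3 at day 6, 32.2 in Sox17-XEN and 40.5 in wild-type XEN. Npc2, its soluble partner, was at 43.0 FPKM without dox, 131 FPKM at day 6, 66.7 FPKM in Sox17-XEN and 128 FPKM in wild-type XEN. In deposited FPKM, all 3 carriers were higher in day 6, Sox17-XEN and wild-type XEN than in every ESC and dox library up to 49 h. After rescaling, this no longer held for Stard4 in Sox17-XEN. The share of all genes with this order was not counted.

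Fatty acid genes were lower in Sox17-XEN than in wild-type XEN in 4 of 8 cases, against 6.76% of all genes. Their median was -0.99, with all 8 below 0. Fatty acid synthase (Fasn) was at 79.1 FPKM in R1 ESC, 96.5 without dox, 68.4, 67.8, 75.6 and 69.3 at 7, 21, 35 and 49 h, 49.2 at day 6, 49.4 in Sox17-XEN and 175 in wild-type XEN. The elongase gene Elovl6 was at 17.1 FPKM in R1 ESC, 20.9 without dox, 21.7, 23.5, 29.4 and 26.4 at 7, 21, 35 and 49 h, 11.6 at day 6, 9.24 in Sox17-XEN and 22.0 in wild-type XEN. ATP-citrate lyase (Acly), which supplies acetyl-CoA to both pathways, had estimates in 3 libraries, with R1 ESC at 95.6 FPKM, Sox17-XEN at 79.5 FPKM and wild-type XEN at 160.1 FPKM. Its difference of -1.0 sat on the threshold and became -0.95 after rescaling, which leaves 3 of 8 lower. For Fasn, Sox17-XEN and day 6 were alike and the lowest of the libraries, and wild-type XEN was the highest.

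The desaturases and Lpin1 behaved otherwise. Scd1, which makes oleate and palmitoleate, was at 10.005 FPKM in R1 ESC, 18.6 without dox, 14.7, 28.6, 32.0 and 25.4 at 7, 21, 35 and 49 h, 99.2 at day 6, 77.1 in Sox17-XEN and 152 in wild-type XEN. Its sister Scd2 was at 77.2 FPKM in R1 ESC, 109 without dox, 75.1, 105, 102 and 82.8 at 7, 21, 35 and 49 h, 152 at day 6, 385 in Sox17-XEN and 981 in wild-type XEN. Lpin1, a phosphatidate phosphatase of glycerolipid synthesis, was at 2.99 FPKM in R1 ESC, 5.46 without dox, 3.67, 6.02, 4.99 and 4.98 at 7, 21, 35 and 49 h, 20.0 at day 6, 42.4 in Sox17-XEN and 75.0 in wild-type XEN. In all 3, both XEN-type lines lay above R1 ESC and the Sox17 line through 49 h, with wild-type XEN highest. Acetyl-CoA synthetase Acss2 had the same order, from 4.38 to 4.69 FPKM up to 49 h, 11.4 FPKM in Sox17-XEN and 21.0 FPKM in wild-type XEN. Acetyl-CoA carboxylase (Acaca) stayed between 7.29 and 16.9 FPKM throughout, with the 2 ESC lines at the ends of that range. Summed over the 7 fatty acid genes measured everywhere, the level was 198 to 272 FPKM up to 49 h, 347 FPKM at day 6, 584 FPKM in Sox17-XEN and 1437 FPKM in wild-type XEN. Scd2 made up most of the last 2 sums, and it shares its locus with another row.

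The LXR targets Abca1 and Abcg1 were higher in Sox17-XEN than in wild-type XEN, by the size. Abca1, which passes cholesterol to lipid-poor apolipoproteins, was at 1.04 FPKM in R1 ESC, 2.23 without dox, 3.49, 2.65, 2.63 and 2.42 at 7, 21, 35 and 49 h, 4.93 at day 6, 19.9 in Sox17-XEN and 4.93 in wild-type XEN. Abcg1, which exports sterol to lipoprotein particles, was at 1.78 FPKM in R1 ESC, 3.87 without dox, 2.98, 4.65, 3.57 and 2.42 at 7, 21, 35 and 49 h, 2.19 at day 6, 10.05 in Sox17-XEN and 0.803 in wild-type XEN. Sox17-XEN held the highest value of both exporters and wild-type XEN the lowest Abcg1, giving differences of 1.82 and 2.62 log2 units. These were the 2 members called higher of all 37, against 9.09% of all genes, so the count is not above the background. Mylip, a ubiquitin ligase for lipoprotein receptors and a further LXR target, was low throughout, at 1.29 FPKM in Sox17-XEN, 2.23 FPKM in wild-type XEN and 5.49 FPKM at day 6. Of the receptors, Nr1h2 (LXR beta) was at 48.9 to 69.6 FPKM in all libraries, and Nr1h3 (LXR alpha) stayed under 1 FPKM, with a maximum of 0.886 FPKM. Abca1 and Abcg1 are low-level genes, and neither has a mean of 5 FPKM over the libraries. Fibroblast markers, 706 FPKM in Sox17-XEN against 14.0 FPKM in wild-type XEN, were higher along with both exporters in this pair. They summed to 1904 FPKM without dox and 2349 FPKM at 49 h, where Abca1 was at 2.23 and 2.42 FPKM and Abcg1 at 3.87 and 2.42 FPKM. The part of fibroblasts in the exporter levels was not tested.

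Sox17-XEN was next set against its own starting line. Compared with the no dox library, 9 of 17 sterol enzymes were lower and 0 higher, with a median of -1.12. Over 36 members, 10 were lower, against 14.6% of all genes, and 10 were higher, against 20.6%. The 10 lower members were Acat2, Mvd, Idi1, Fdps, Sqle, Lss, Sc4mol, Nsdhl and Dhcr7 among the sterol enzymes, and Elovl6. The 10 higher were Srebf1, Insig1, Insig2, Npc1, Acss2, Scd1, Scd2, Lpin1, Abca1 and Abcg1. Idi1 differed by -2.98 log2 units and Lpin1 by 2.75. The median of all genes was 0.17 in this pair and -0.11 after rescaling. With rescaling 12 of 17 enzymes were lower, 15 members were lower and 7 higher. Of all 14984 genes, 2910 were then lower and 1953 higher. Fibroblast markers were also lower in Sox17-XEN here, in 8 of 10 cases, and their part was not tested.

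The wild-type pair gave other counts. Compared with R1 ESC, wild-type XEN held 22 of 37 members higher, against 25.7% of all genes, and 0 lower, against 16%. These were 9 of 17 sterol enzymes, 4 of 5 SREBP genes, all 3 carriers, 5 of 8 fatty acid genes and Abca1. The median was 1.03 for the enzymes, 1.65 for SREBP control and 2.40 for the carriers, beside 0.21 for all genes. Late enzymes led the sterol group, with 8 of 10 called among those from squalene on and 1 of 7 before it. After rescaling, the median of all genes became -0.18, and 14 members and 3 sterol enzymes (Cyp51, Hsd17b7 and Sc5d) were called. Of all 14974 genes, 2296 were then called higher, so 3 of 17 enzymes is near the background. The median of the enzymes before squalene went from 0.53 to -0.01, so no direction is given for that group. Acat2, Mvk, Idi1, Fdps, Tm7sf2, Nsdhl, Elovl6 and Mylip changed sign under rescaling. The largest differences were those of Lpin1 (4.25), Scd1 (3.80), Insig1 (3.70), Scd2 (3.65) and Stard4 (3.36), between 2.85 and 3.76 after rescaling. Fibroblast markers summed to 842 FPKM in R1 ESC and 14.0 FPKM in wild-type XEN, and their part was not tested.

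**Figure D3:**
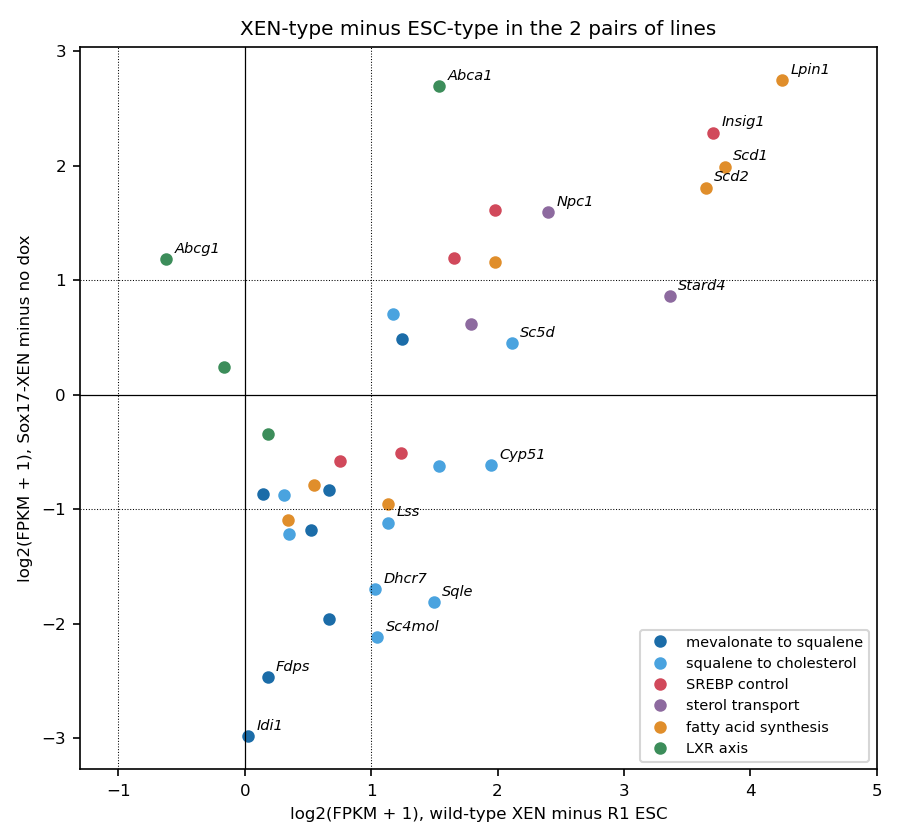
Difference in log2(FPKM + 1) of wild-type XEN from R1 ESC (horizontal) and of Sox17-XEN from the no dox library (vertical) for 36 genes, coloured by role, with dotted lines at 1 unit. Insig1, Npc1, Scd1, Scd2, Lpin1 and Abca1 lie past 1 in both pairs, while Sqle, Lss, Sc4mol and Dhcr7 lie past 1 to the right and past -1 below.

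Sqle, Lss, Sc4mol and Dhcr7 were past the size in opposite directions in the 2 pairs, which is 4 of 36 members against 0.65% of all genes. All 4 act between squalene and cholesterol. Sqle differed by 1.50 in the wild-type pair and by -1.81 in the Sox17 pair. Sc4mol differed by 1.05 and -2.12. After rescaling the first difference was 0.96 for Sqle, 0.61 for Lss, 0.51 for Sc4mol and 0.50 for Dhcr7, so none of the 4 stays past the size in the wild-type pair, though the signs remain opposite.

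With each line as 1 unit, the 2 XEN-type lines were tested against the 2 ESC-type lines (limma, two-sided, Benjamini-Hochberg over 14925 genes). Of 36 members, 7 rose, against 11.6% of all genes, and 0 fell, against 9.89%. At an unadjusted p under 0.05, 11 members were higher and 0 were lower. The 7 were Lpin1 (3.50 log2 units, SE 0.43, limma adjusted p = 0.0192), Insig1 (3.0, SE 0.65, adjusted p = 0.0469), Scd1 (2.90, SE 0.48, adjusted p = 0.0305), Scd2 (2.73, SE 0.55, adjusted p = 0.0415), Npc1 (2.0, SE 0.29, adjusted p = 0.0243), Insig2 (1.80, SE 0.34, adjusted p = 0.0384) and Srebf1 (1.42, SE 0.22, adjusted p = 0.0264). In each of the 7, both XEN-type lines lay above both ESC-type lines. No sterol enzyme passed: Idi1 had an estimate of -1.48 (SE 0.91, limma adjusted p = 0.290), and Sqle -0.16 (SE 1.05, adjusted p = 0.927). The 4 libraries are not 4 separate derivations, since Sox17-XEN came from the Sox17 ESC line. Without R1 ESC or without the no dox library 0 members passed, after rescaling 4 did (Insig1, Insig2 and Scd2 were lost), and with no filter on low values 0 did.

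No member with an estimate reached the size in the dox course up to 49 h, which is near the background. Acly had no estimate there. Compared with no dox, 0 of 36 members were past the size at 7 h, against 3.03% of all genes, 0 at 21 h, against 5.08%, 0 at 35 h, against 4.62%, and 0 at 49 h, against 5.54%. Member differences lay between -0.67 and 0.75 over these 4 times, with the highest in Scd1 at 35 h. The Sox17 line without dox differed from R1 ESC past the size in 2 members, Scap (1.19) and Acaca (1.11), against 5.36% of all genes.

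At day 6, 6 members were lower than without dox, against 12.7% of all genes, and 9 were higher, against 17.6%. The 6 lower were all sterol enzymes: Idi1 (-2.79), Fdps (-1.86), Mvd (-1.35), Sqle (-1.27), Hsd17b7 (-1.21) and Sc4mol (-1.13). The 9 higher were Ebp (1.61), Srebf2 (1.14), Insig1 (2.37), Stard4 (1.89), Npc1 (2.69), Npc2 (1.58), Scd1 (2.35), Lpin1 (1.70) and Mylip (1.16). The higher genes include all 3 sterol carriers and 2 of 5 SREBP control genes, of which Srebf2 was at 0.87 after rescaling. Cyp51, at 20.7 FPKM without dox and 24.4 FPKM at day 6, and Lss, at 26.6 and 23.9 FPKM, did not reach the size. Rescaling raised the lower count to 10 and left 7 higher, beside 2478 lower and 1961 higher of all 14992 genes. All 10 fibroblast markers were lower at day 6, with a median of -3.24, and the label mentions a sort, whose part was not tested.

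**Figure D4:**
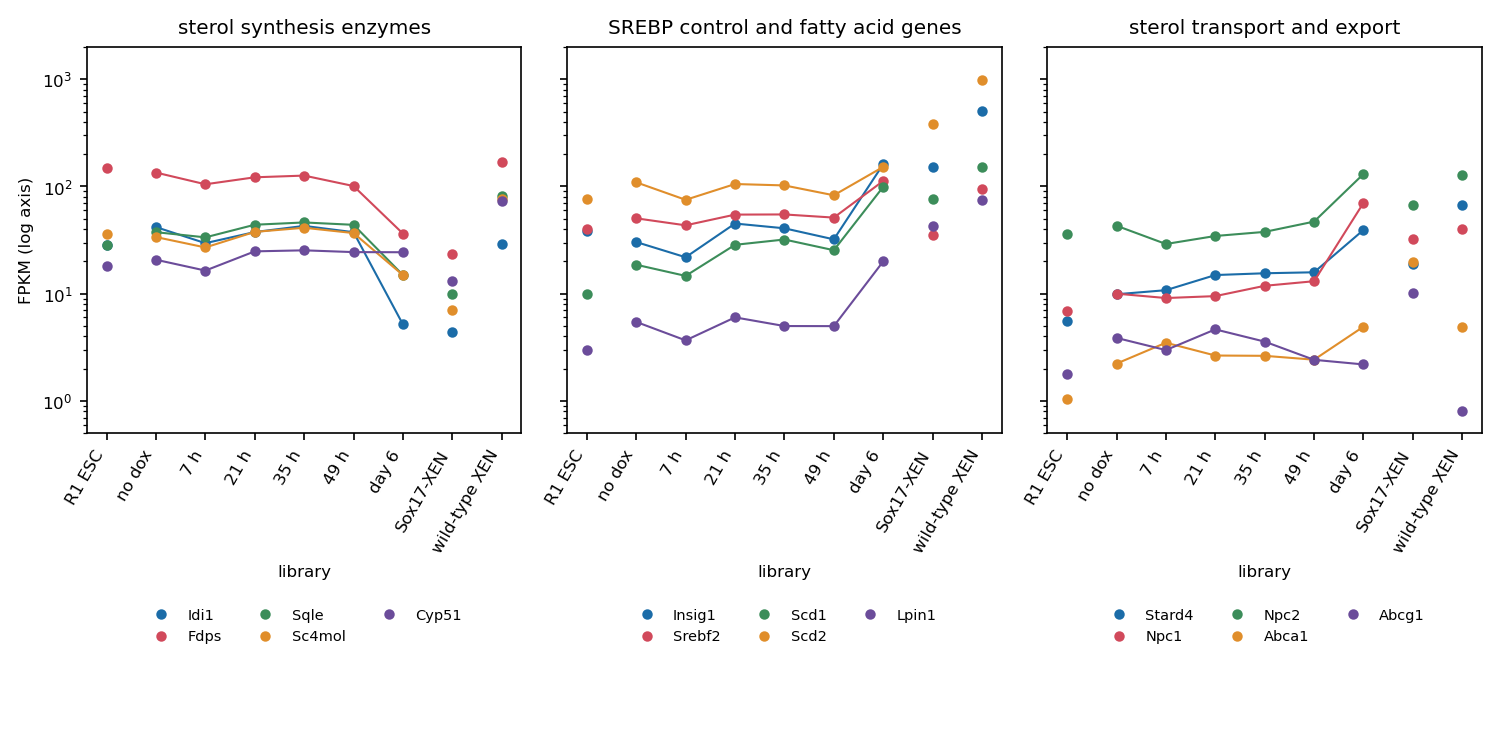
FPKM (log axis) of 15 genes in the 9 libraries, with lines joining the 6 libraries of the dox course and points for R1 ESC, Sox17-XEN and wild-type XEN. Of the sterol enzymes drawn, Idi1, Fdps, Sqle and Sc4mol are level up to 49 h and lower at day 6, and Cyp51 is not lower. Over all 17 measured enzymes, 6 were called lower at day 6 than without dox and 1, Ebp, higher. Insig1, Scd1, Lpin1, Stard4 and Npc1 are higher at day 6.

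Between day 6 and Sox17-XEN the share of members called was near that of all genes in deposited FPKM, but not for lower members after rescaling. Of 36, 5 were lower in Sox17-XEN, against 9.82% of all genes, and 4 were higher, against 10.6%. Lower were Dhcr7 (-1.14), Srebf2 (-1.65), Stard4 (-1.03), Npc1 (-1.10) and Mylip (-1.50). Higher were Scd2 (1.33), Lpin1 (1.05), Abca1 (1.82) and Abcg1 (1.79). Idi1 was at 5.17 FPKM at day 6 and 4.42 FPKM in Sox17-XEN, a difference of -0.19, so its low level was already present at day 6. The enzyme median was -0.60. After rescaling 9 of 36 members were lower, against 1558 of 14985 genes, and 3 were higher, against 1302. Among the 9 were all 3 carriers and 4 enzymes, where 1 enzyme was lower before. The carriers had been highest in the Sox17 line at day 6. For the exporters Abca1 and Abcg1 the high value was seen in Sox17-XEN and not at day 6.

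Fitting the rank of time across the 6 dox libraries as a slope called 0 of 36 members and 0 of 14933 genes (limma adjusted p under 0.05, a background of 0%). At an unadjusted p under 0.05, limma gave 2442 rising and 1305 falling genes, with 6 and 1 among the members. The 6 were Sc5d, Stard4, Scd1, Mylip, Npc1 and Insig1, and the 1 was Fasn. With hours in place of rank, 6340 genes and 20 members passed, and without day 6 that fit called 1 gene and 0 members, so these calls rest on the day 6 library.

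Neighbouring pathways were counted in the same way. Among 10 genes of the isoprenoid and prenylation branch, which uses the same precursors, 0 were past the size between the XEN-type lines, with a median of -0.13, beside 6.76% of all genes lower and 9.09% higher, so in a list this short 0 is near the background. Its largest differences from R1 ESC were those of the prenyltransferase subunit Pggt1b, with 3.45 FPKM for R1 ESC and 15.0 FPKM for wild-type XEN, and of the methyltransferase Icmt, at 9.69 and 26.1 FPKM. Of 17 fatty acid oxidation genes, 1 was higher in Sox17-XEN and 0 lower, with a median of 0.09, also near the background. That gene was Cpt1a, the gatekeeper of mitochondrial oxidation, at 3.28 FPKM against 0.971 FPKM. At day 6, 7 of the 17 were higher than without dox, against 17.6% of all genes, among them the carnitine carrier Slc25a20 (7.92 and 55.7 FPKM).

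Among 16 further genes of fatty acid elongation, desaturation and activation, 5 were lower in Sox17-XEN than in wild-type XEN, against 6.76% of all genes, and 2 higher, near the background of 9.09%. The polyunsaturated fatty acid desaturase gene Fads2 was at 29.0 FPKM in R1 ESC, 43.1 without dox, 28.8, 41.4, 43.5 and 35.9 at 7, 21, 35 and 49 h, 11.7 at day 6, 15.0 in Sox17-XEN and 95.5 in wild-type XEN. Like Sqle, it was lowest in day 6 and Sox17-XEN and highest in wild-type XEN. The malic enzyme gene Me1, a source of NADPH for lipid synthesis, was 12.3 FPKM without dox, 138 FPKM at day 6, 92.8 FPKM in Sox17-XEN and 39.7 FPKM in wild-type XEN. Acacb, the mitochondrial-side carboxylase, was 3.42 and 0.537 FPKM in these lines.

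Of 13 sterol uptake and storage genes, 4 were lower in Sox17-XEN than in wild-type XEN, against 6.76% of all genes, and 1 was higher, against 9.09%, with a median of -0.33. The lipoprotein receptor genes Lrp8 and Vldlr differed by -3.66 and -3.11 log2 units, from 0.699 to 20.5 FPKM and from 4.59 to 47.3 FPKM. The HDL receptor gene Scarb1 was at 3.34 and 22.1 FPKM, while its lysosomal relative Scarb2 was at 66.4 and 21.1 FPKM. Soat1, which esterifies cholesterol for storage, rose in the XEN-type lines by 3.10 log2 units (SE 0.35, limma adjusted p = 0.0183), with 3 others of this list, against 11.6% of all genes. Of 10 genes that process SREBP or degrade the sterol machinery, 6 rose in the XEN-type lines, against the same 11.6%, among them Erlin2 (2.63, SE 0.23, limma adjusted p = 0.0171). Without R1 ESC or without the no dox library this test called 0 genes in the whole table. In that list 1 gene, the COPII coat gene Sec24d, differed past the size between the XEN-type lines, at 103 and 43.1 FPKM, and 0 were lower in Sox17-XEN.

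The deposited table of the authors gives an interval for each value, and these are wide. Of 326 member values at 1 FPKM or more, 311 (95.4%) had a lower bound of 0 in the authors' deposited table. For Sc4mol that table gives 0 to 19.3 FPKM in Sox17-XEN and 0 to 662 FPKM in wild-type XEN. No member difference described by size had intervals that do not overlap. Of the 39 genes, 14 share their listed locus with another row, among them Fdps, Fdft1, Lss, Tm7sf2, Srebf1, Srebf2, Npc1, Scd2 and Abcg1, and the use of strand in counting is not given in the sources used here.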

How the data were processed

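RNA sequencing of 9 libraries was used as deposited. The authors' table gives FPKM per gene, an authors' interval and a status. Build mm9 and the tools TopHat2 2.0.11, Cufflinks 2.1.2 and Cuffdiff are named per the submitters' processing notes. The annotation, strand use and scaling between libraries are not given in the sources used here. Values with any status other than OK were left out. The deposited FPKM were turned into log2(FPKM + 1), with a pseudocount of 1, and rows with a maximum of at least 1 FPKM were kept. Differences of 1 log2 unit or more were called by size, with no test. The 2 fits over several libraries used limma 3.58.1 in R 4.3.3 (empirical Bayes with a mean trend, two-sided, Benjamini-Hochberg over all genes, adjusted p under 0.05): a slope on time rank across 6 libraries, and 2 XEN-type against 2 ESC-type lines. Both were tested on simulated data. Where the labels name no separate cultures, p-values measure only the spread between these libraries. Rescaling divided each library by its median ratio over 9774 rows. Relative depth, estimated from steps between low FPKM values, ran from 62.0% (day 6) to 127% (7 h) of R1 ESC, but at most 8.38% of low values shared the step, and absolute depth is unknown. Other values used Python 3.11.15 and pandas 2.3.3. Promoters are from RefSeq (GRCm38.p6), a build other than mm9, and were matched by symbol.

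The genes, lists and comparisons were chosen with earlier results of these data known. Genes given in every library are those past 1 log2 unit between the XEN-type lines and the 2 with the widest range in each role group. Srebf1 was added after its values were seen. From each neighbouring list up to 3 genes with the largest differences were taken, and Soat1 and Icmt were named after their values were seen. Alternatives were a size of 2 log2 units, rescaling, a pseudocount of 0.1, a mean of at least 5 FPKM, no filter, intervals that do not overlap, each library left out, and other time scales.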

Additional observations from a re-analysis of the deposited data

Results flagged for a closer look

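For Sqle, Lss, Sc4mol and Dhcr7, single libraries of the 2 pairs of lines differed in opposite directions. Wild-type XEN minus R1 ESC was 1.50 for Sqle, 1.14 for Lss, 1.05 for Sc4mol and 1.03 for Dhcr7, in log2(FPKM + 1). Sox17-XEN minus the no dox library was -1.81 for Sqle, -1.12 for Lss, -2.12 for Sc4mol and -1.70 for Dhcr7. After rescaling, wild-type XEN minus R1 ESC was 0.96 for Sqle, 0.61 for Lss, 0.51 for Sc4mol and 0.50 for Dhcr7, all short of the size. Each side is 1 library, so the difference between the pairs was not tested.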

How the results depend on the processing

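With a size of 2 log2 units, Sox17-XEN against wild-type XEN had 7 members lower and 1 higher, wild-type XEN against R1 ESC 7 higher, Sox17-XEN against no dox 3 lower and 3 higher, day 6 against no dox 1 lower and 3 higher, and Sox17-XEN against day 6 and no dox against R1 ESC 0. This size asks more of each gene by construction. Rescaling gave 14 members higher in wild-type XEN than in R1 ESC, 10 lower at day 6 than without dox, 9 lower in Sox17-XEN than at day 6, and 4 members in the test of lines. A pseudocount of 0.1 gave 1 member lower in wild-type XEN than in R1 ESC and 4 past the size between no dox and R1 ESC. With a mean of at least 5 FPKM, 0 members were higher in Sox17-XEN than in wild-type XEN and 2 than at day 6, since fewer genes are tested. Requiring intervals that do not overlap left 0 members in every comparison by size. Over single members, 45 of 364 differences crossed the size under an alternative, and 0 differences past the size changed sign. Smaller differences between wild-type XEN and R1 ESC did change sign under rescaling, as for Acat2, Mvk, Idi1 and Fdps.

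The trend over the dox course called 6340 genes and 20 members with hours in place of rank, 2009 genes and 2 members with Sox17-XEN added, and, with hours and without day 6, an alternative chosen after seeing the data, 1 gene and 0 members. With rank, leaving out each library in turn gave 0 genes each time. The test of lines called 2106 genes and 0 members with no filter. Leaving out each library gave 0 to 2462 genes and 0 to 10 members, with 0 of both without R1 ESC and 0 of both without no dox, 1935 genes without wild-type XEN and 2462 without Sox17-XEN. The lone library of a side is then assumed to vary like the other side. With loci shared by no other row, also chosen after seeing the data, 15 members were lower in Sox17-XEN than in wild-type XEN. Where no cause is named, the cause was not tested. No paired analysis was possible because each group has 1 library.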
